A study of Arabidopsis thaliana with 29 samples.

Results

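Mitochondrial genes for respiration, for the mitochondrial ribosome and for the maturation of proteins and transcripts were followed in plants of Arabidopsis thaliana that went without water. They were chosen by identifier and not by their values, from a list of 38 loci of the nad, cob, cox, atp, ccm, rpl, rps, matR and mttB genes. Of the 38, 33 have a row among the 33681 loci of the expression table, which holds 122 mitochondrial loci in all, and the other 5 were not analysed here. A gene name could be given to 15 of the 33 from the reference annotation, and the other 18 are given by identifier only. Where these genes are grouped by function below, only the 15 with a name are counted. Plant mitochondria pass electrons from NADH through complex I, complex III and cytochrome c to complex IV, and complex V makes ATP from the proton gradient that this builds. The mitochondrial genome encodes some core subunits of these complexes and some proteins of its own ribosome. It also encodes part of the machinery that attaches haem to cytochrome c. Nuclear genes encode most partner subunits and most of the proteins that splice and edit mitochondrial transcripts.

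Transcript abundance was measured by RNA sequencing of total RNA from whole plants. The mutant pp7l (named for PP7L, which encodes a nuclear phosphatase-like protein) was studied at 0, 6, 9, 12 and 15 days without water, written 0 D to 15 D, with 3 libraries a day and 15 in all. The wild type Col-0, written Col0, was studied on the same days with 3 libraries each, except 2 at 6 D, and 14 in all. All plants began on a medium with sucrose, were moved to soil, and were 3 weeks old under 16 h of light when watering stopped. The pp7l allele is named differently in the sample labels and in the series' design text, so only the gene is given here. No watered plants of the later days are named, so that days without water and age cannot be told apart. The headers call the replicates biological, but the labels do not say whether they were separate plants or pots, so p-values measure only the spread between these libraries. Values are TPM (transcript abundance scaled to a fixed total), a share of each library's total per transcript length, and the read depth behind them is unknown. In bulk samples, fewer cells of a type and less RNA per cell cannot be told apart.

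Some libraries stood apart. Plastid loci held 60.2% to 70.6% of all TPM in pp7l libraries and 13.7% to 86.7% in Col0 libraries. Nuclear rRNA took 25.0% of TPM in Col0 12 D replicate 3, and 27.5% and 61.2% in Col0 15 D replicates 1 and 3, against at most 2.06% in any other library. The noncoding RNA AT1G15405 took 46.0% of Col0 15 D replicate 2. The sum of 4 leaf markers (RBCS1A, CAB3, CA1 and RBCS3B), all above 0 in every library, ranged over 1298 to 9302 TPM in pp7l and 14.7 to 9905 TPM in Col0. The sum of 8 seed storage genes reached 0.635 TPM in pp7l and 375 TPM in Col0, where its highest 3 values were those of 15 D. The 7 floral genes summed to at most 13.7 TPM in pp7l and 42.3 TPM in Col0, and the 3 root hair genes to at most 1.41 TPM in pp7l and 0.185 TPM in Col0. The targeted gene PP7L (AT5G10900) stood at 0.586 ± 0.184 TPM in pp7l and 0.200 ± 0.0996 TPM in Col0 at 0 D (SD, n = 3 each), so its level was not lower in the mutant. Col0 6 D is described and not tested, because its 2 libraries differ strongly. Both libraries still entered the model, which estimated the spread of each gene over all groups together. Their difference is thus part of the SE and p-values of every comparison, also of those between other groups, and can keep genes from being called. Counts of genes called without these libraries are given below where they moved.

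Many of these mitochondrial genes have a near-identical copy in the nuclear genome, in an insertion of mitochondrial DNA on chromosome 2, and reads of the pair cannot be told apart where the sequences match. In the TAIR10.1 reference, a nuclear locus with a row in the table matched 14 of the 33 members. For 9 of the 14 the match was identical over the whole mitochondrial coding sequence, namely cob, cox3, atp6, atp9, nad3, rpl5, rps4, rps7 and rps12. The copy of atp1 was identical over 1509 of its 1524 coding bases. The other matches were partial, over 86.4% of the coding sequence of rpl2, 66.7% of ccmFN2, 38.9% of nad2 and 17.2% of ccmFC. Between 60.8% and 73.8% of the summed TPM of the 14 pairs was assigned to the nuclear locus in each library. This summed share is weighted to atp9 and does not hold for each pair. In Col0 0 D replicate 1, the copy of atp9 held 4923 of the 5692 TPM on copies. TPM of the 14 members are therefore uncertain. The pair sum is given beside the member where it turns the sign or call of a named result, or moves it strongly.

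The assignment differed from pair to pair. The ribosomal protein genes rpl5 (ATMG00210), rps4 (ATMG00290) and rps7 (ATMG01270) were listed at 0 in nearly every library, and none of them passed the filter for testing. Their nuclear copies held the signal. AT2G07725, the copy of rpl5, stood at 60.2, 56.6 and 90.7 TPM in pp7l at 15 D, against 13.8, 10.2 and 4.52 TPM in Col0 at 15 D. AT2G07671, the copy of atp9, stood at 4113, 4032 and 3941 TPM in pp7l at 0 D, above the member atp9 itself at 1607, 1740 and 1808 TPM. For nad3 and nad2 it was the nuclear locus that was listed at 0 in every library. The copy of atp6, AT2G07741, was at 0 in all but 3 libraries, with 401 and 177 TPM in Col0 15 D replicates 2 and 3 and 452 TPM in Col0 6 D replicate 1. ATMG00665 was at 0 throughout, so 29 of the 33 genes were tested, among 18757 loci.

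**Figure D1:**
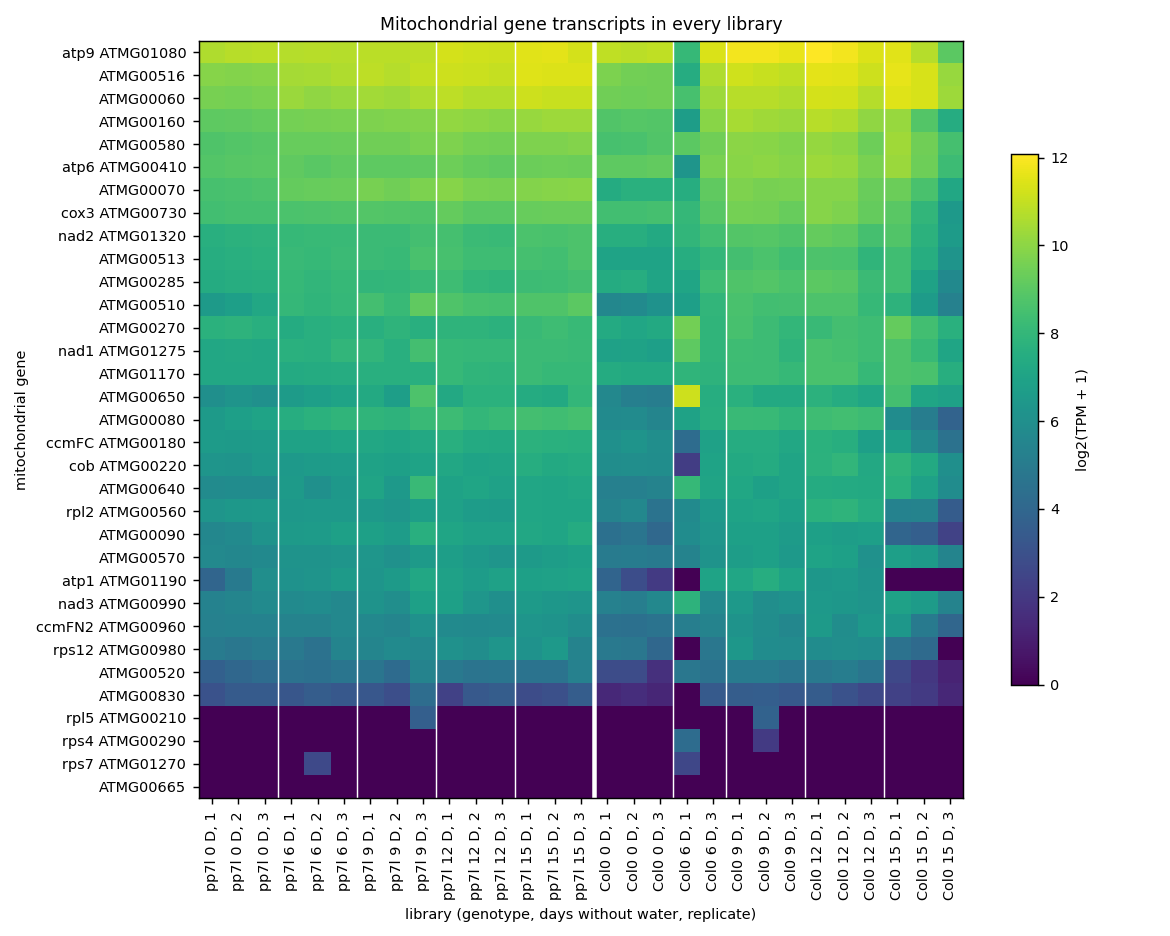
Level of each of the 33 mitochondrial genes (rows, ordered by mean) in each of the 29 libraries (columns, pp7l left of Col0, days without water low to high), as log2(TPM + 1) on the colour scale. Levels in pp7l change gradually over the days, while Col0 6 D replicate 1 and the Col0 15 D libraries stand apart from their neighbours.

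At 0 D the levels spanned about the same range in both genotypes. The highest was atp9 (ATMG01080), the ring subunit of complex V, with 1718 ± 102 TPM in pp7l and 1896 ± 95.6 TPM in Col0 (SD, n = 3 each). ATMG00516 followed with 932 ± 21.3 TPM in pp7l and 756 ± 58.6 TPM in Col0, and then ATMG00060 with 773 ± 35.3 TPM in pp7l and 698 ± 10.9 TPM in Col0. In pp7l, ATMG00160 (566 ± 20.4 TPM) came before atp6 (ATMG00410, 487 ± 19.6 TPM), a membrane subunit of complex V. In Col0 the order of these 2 was the other way, with ATMG00160 at 460 ± 19.3 TPM and atp6 at 548 ± 21.9 TPM. The lowest gene above 0 in both genotypes was ATMG00830, with 7.26, 10.1 and 10.2 TPM in pp7l and 1.59, 2.00 and 1.44 TPM in Col0. Libraries of neighbours in this order overlapped for atp6 and ATMG00580 in pp7l (459 ± 24.7 TPM for ATMG00580) and for ATMG00160 and ATMG00580 in Col0 (406 ± 34.9 TPM for ATMG00580), so these neighbours do not differ beyond their spread. Cox3 (ATMG00730), a core subunit of complex IV, lay at 357 ± 13.4 TPM in pp7l and 349 ± 10.1 TPM in Col0, and ATMG00070 at 392 ± 17.8 TPM in pp7l and 191 ± 18.9 TPM in Col0.

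The mean summed level of the 33 genes was higher on each later day than at 0 D in both genotypes, although 1 Col0 library of 15 D lay below those of 0 D. In pp7l it began at 0.769% ± 0.0336 of all TPM, stood at 1.01% ± 0.0372 on day 6, 1.20% ± 0.126 on day 9 and 1.37% ± 0.0954 on day 12, and ended at 1.64% ± 0.00688 (SD, n = 3 each). In Col0 it began at 0.671% ± 0.00926, stood at 1.63% ± 0.118 on day 9 and 1.82% ± 0.357 on day 12, and ended at 1.17% ± 0.636 (SD, n = 3 each), with 0.731% and 1.22% in the pair of libraries of day 6. The 3 Col0 libraries of 15 D held 1.80%, 1.18% and 0.525%, and the lowest of them was the one with 61.2% of nuclear rRNA. Set against nuclear protein-coding loci, which leaves plastid loci, rRNA and noncoding RNA out of the total, the picture at 15 D was different. The genes summed to 6.16, 6.42 and 6.18 TPM per 100 TPM of nuclear protein-coding loci in pp7l at 15 D, against 10.4, 6.77 and 7.63 in Col0. At 0 D the same measure was 3.16, 3.24 and 3.29 in pp7l and 2.94, 2.70 and 3.29 in Col0. On this scale each Col0 library of 15 D lay above all 3 pp7l libraries of 15 D, whereas on the share of all TPM 1 lay above and 2 below.

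**Figure D2:**
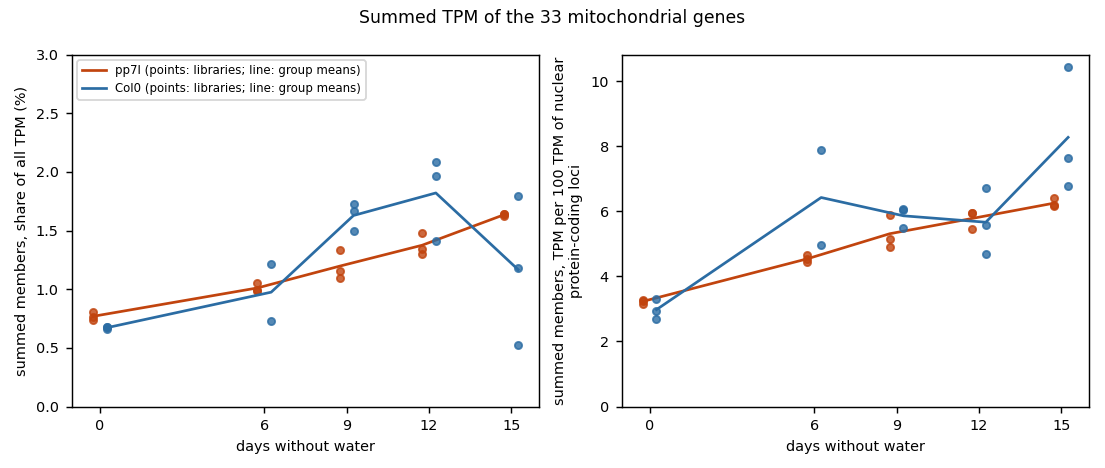
Summed TPM of the 33 mitochondrial genes against days without water, as % of all TPM (left) and per 100 TPM of nuclear protein-coding loci (right), with points for libraries and lines through group means. The Col0 libraries of 15 D spread over 0.525% to 1.80% of all TPM, while on the right-hand scale they lie at 6.77 to 10.4, above the pp7l libraries.

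The 2 Col0 libraries of 6 D differed strongly from each other. Replicate 1 held 274 TPM of atp9 and replicate 3 held 2697 TPM, while Col0 libraries of 0 D held 1940, 1786 and 1961 TPM. ATMG00650 went the other way, with 2280 TPM in replicate 1 and 186 TPM in replicate 3. Replicate 1 also listed atp1 and rps12 at 0 and had 546 TPM of nad1, above the 238 TPM of replicate 3. It held 86.7% of its TPM in plastid loci and 754.9 TPM of leaf markers. No mean of the pair is given in the text, and the plots' lines and bars at 6 D average just these 2 libraries.

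In Col0, the question of what happens to these genes as the plants dry was first asked at 9 D against 0 D. At 9 D, 24 of the 29 genes rose and none fell by limma's test on log2(TPM + 1), at an adjusted p under 0.05 over all loci (called, in what follows). Of all loci tested, 64.8% were called higher and 2.88% lower in the same comparison, so most of the table moved the same way. The median log2 change was 1.46 for the 29 genes and 0.86 for all loci tested. After median-of-ratios scaling, which brings the change of the median locus near 0, 6 genes were called higher and none lower. The share of all loci called at 9 D on that scale is not given here. Below, a count without a share of all loci beside it shows only how far the count moved with the setting.

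The change differed from gene to gene. In complex V, atp1 (ATMG01190), the catalytic-core alpha subunit, had 139, 181 and 127 TPM in Col0 at 9 D, against 13.8, 6.23 and 3.15 TPM at 0 D. All libraries of 9 D lay above those of 0 D, and the log2 change was 4.28 ± 0.87 (SE, adjusted p = 0.000132). Summed with its nuclear copy AT2G07698, the pair stood at 1266, 1329 and 1139 TPM at 9 D, against 241, 294 and 145 TPM at 0 D, a log2 change of 2.51. Of the other named complex V genes, atp6 changed by 0.84 ± 0.50 (adjusted p = 0.14) and atp9 by 0.92 ± 0.52 (adjusted p = 0.121). Neither was called. Summed with their copies, atp6 (0.84), cob (1.63) and rps12 (1.53) were called higher at 9 D, where the members alone were not. ATMG00510 and ATMG00520 rose most after atp1, by 2.66 ± 0.43 (adjusted p = 8.28e-06) and 2.49 ± 0.35 (adjusted p = 1.18e-06). The lowest change besides atp6 was that of nad3 (ATMG00990), a membrane subunit of complex I, at 0.85 ± 0.41 (adjusted p = 0.0707), and then that of ATMG01170, which rose by 0.86 ± 0.30 (adjusted p = 0.0119). After median-of-ratios scaling or scaling to the sum of the 33 genes, the sign for ATMG01170 turned, to -0.51 and -0.41, with neither called.

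At 12 D, 26 of the 29 genes were called higher than at 0 D in Col0 and none lower, beside 61.9% and 11.9% of all loci. The median log2 change was 1.64, beside 0.97 for all loci. After median-of-ratios scaling, 7 were called higher and 2 lower, beside 35.1% and 34.6% of all loci. Cob (ATMG00220), the cytochrome b of complex III, had 214, 242 and 154 TPM at 12 D, against 58.6, 60.8 and 58.9 TPM at 0 D, with no overlap, and rose by 1.73 ± 0.62 (adjusted p = 0.0147). The ribosomal protein gene rpl2 (ATMG00560) had 209, 228 and 175 TPM at 12 D, against 40.6, 48.1 and 23.3 TPM at 0 D, and rose by 2.47 ± 0.37 (adjusted p = 1.51e-06). Both genes were highest in Col0 at 12 D of all groups. Of the cytochrome c maturation genes, ccmFC (ATMG00180) rose by 1.27 ± 0.47 (adjusted p = 0.0179) and ccmFN2 (ATMG00960) by 1.78 ± 0.38 (adjusted p = 0.000134). ATMG00080 rose by 2.64 ± 0.35 (adjusted p = 2.22e-07), with 315, 344 and 311 TPM at 12 D, against 54.1, 55.8 and 44.1 TPM at 0 D. The alpha subunit gene atp1 rose by 3.43 ± 0.87 (adjusted p = 0.000936) and ATMG00510 by 2.65 ± 0.43 (adjusted p = 4e-06). At the low end stood atp9 (0.90 ± 0.52, adjusted p = 0.122), atp6 (0.94 ± 0.50, adjusted p = 0.091) and nad3, which rose by 1.02 ± 0.41 (adjusted p = 0.0287). As pair sums, atp6 (0.94) and rps12 (1.47) were called higher. After median-of-ratios scaling atp9 and atp6 were called lower, at -0.62 and -0.57, and nad3 stood at -0.47, not called.

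At 15 D the genes no longer moved together in Col0. Against 0 D, 8 were called higher and 2 lower, beside 16.7% and 34.7% of all loci, and the median log2 change was 0.48, beside -0.23 for all loci. The 8 that rose were ATMG00060, ATMG00270, ATMG00516, ATMG00570, ATMG00640, ATMG00650, ATMG01170 and nad1 (ATMG01275, a part of the gene of a membrane subunit of complex I). ATMG00650 rose most, by 2.19 ± 0.57 (adjusted p = 0.00213), with 357, 138 and 121 TPM at 15 D, against 48.8, 35.8 and 33.3 TPM at 0 D. ATMG00060 rose by 1.58 ± 0.35 (adjusted p = 0.000405), with 2872, 2556 and 1252 TPM at 15 D, against 706, 686 and 703 TPM at 0 D. ATMG00516 rose by 1.50 ± 0.46 (adjusted p = 0.00739), with 3135, 2630 and 1188 TPM at 15 D, against 823, 734 and 712 TPM at 0 D. In all 3 of these genes each library of 15 D lay above those of 0 D, as in 9 of the 29 genes and 14.4% of all loci, and replicate 3 was the lowest.

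The 2 that fell were ATMG00090 and atp1. ATMG00090 had 14.5, 11.7 and 4.24 TPM in Col0 at 15 D, against 21.1, 24.5 and 15.9 TPM at 0 D, and fell by 1.07 on the log2 scale (SE 0.34, adjusted p = 0.0102). The alpha subunit gene atp1 was listed at 0 in all 3 libraries of 15 D, so no fold is given. Its pair sum was 148, 139 and 44.2 TPM at 15 D, against 241, 294 and 145 TPM at 0 D, and fell by 1.15 on the log2 scale (adjusted p = 0.0086). At 12 D the same pair sum had been 923, 925 and 743 TPM. The rps12 gene (ATMG00980, small ribosomal subunit) had 22.8, 17.2 and 0 TPM at 15 D, against 28.5, 26.3 and 15.5 TPM at 0 D, a change of -1.64 ± 0.83 that was not called (adjusted p = 0.1). The rps12 pair stood at 90.2, 41.8 and 13.7 TPM at 15 D, against 57.6, 48.7 and 47.7 TPM at 0 D, and changed by -0.43 (adjusted p = 0.401). Summed with its copy, ccmFN2 was called at 15 D, higher by 1.19 (adjusted p = 0.00323), where the member alone was not (0.60 ± 0.38, adjusted p = 0.189).

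The count at 15 D depended on the scale. Scaled to nuclear protein-coding loci, 18 genes were called higher and 1 lower in Col0 at 15 D against 0 D, beside 35.8% and 29.2% of all loci, and after median-of-ratios scaling 19 and 1, beside 37.8% and 33.9%. Scaled to the sum of the 33 genes, 5 were called higher and 11 lower, beside 13.6% and 56.5% of all loci. Without replicate 3, 17 genes were called in TPM as deposited, and 3 were called when only the 2 groups compared entered the fit. For these 2 fits the share of all loci called is not given here.

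In pp7l more genes were called on later days, as over all loci, and their share stayed below or near that of all loci. At 6 D limma called no gene against 0 D (3 at an unadjusted p under 0.05), beside 17.5% of all loci called higher and 3.90% lower, and the median log2 change was 0.46, beside 0.25 for all loci. The fitted changes at 6 D ran from -0.13 ± 0.36 for ATMG00270 (adjusted p = 0.85), 0.00 for atp9 and 0.01 for rps12 up to 0.90 ± 0.35 for ATMG00080 (adjusted p = 0.0692), 1.13 ± 0.43 for ATMG00510 (adjusted p = 0.0598) and 1.39 ± 0.87 for atp1 (adjusted p = 0.272). When only the 6 libraries of the 2 groups entered the limma fit, 20 genes were called higher, and without the 2 Col0 6 D libraries 5 were. The share of all loci called in these 2 fits is not given here, so the counts are not set against it. At 9 D, 5 genes rose and none fell, beside 27.7% and 5.06% of all loci. They were ATMG00080, ATMG00090, ATMG00510, ATMG00640 and ATMG00650, and the median log2 change was 0.68 (all loci 0.34). ATMG00510 rose by 1.70 ± 0.43 (adjusted p = 0.00364) and ATMG00650 by 1.48 ± 0.57 (adjusted p = 0.0471), while atp1 had the highest change (1.78 ± 0.87) and was not called (adjusted p = 0.117). The lowest were ATMG00270 (-0.01), atp9 (0.10) and rpl2 (0.11). Replicate 3 was the highest library of 9 D in all 5 genes that rose. It had 285 TPM of ATMG00640 beside 133 and 90.0 TPM, and 416 TPM of ATMG00650 beside 158 and 107 TPM. ATMG00510 stood at 551 TPM in it, beside 356 and 278 TPM, and ATMG00090 at 194 TPM, beside 115 and 101 TPM. Without this replicate 1 gene was called.

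At 12 D, 9 genes rose in pp7l and none fell, beside 37.8% and 6.31% of all loci, with a median log2 change of 0.80 (all loci 0.46). They were the 5 of 9 D with ATMG00060, ATMG00070, ATMG00516 and ATMG00570. ATMG00510 rose by 1.75 ± 0.43 (adjusted p = 0.00195) and ATMG00650 by 1.47 ± 0.57 (adjusted p = 0.0391), atp1 stood at 1.89 ± 0.87 (adjusted p = 0.0794; called at 1.08 as a pair sum), and the lowest were ATMG00830 (-0.24), ATMG00270 (0.12) and rpl2 (0.30). Without replicate 1 of 0 D, 3 genes were called at 12 D and 9 at 15 D. Scaled to the sum of the 33 genes, 2 were called higher and 1, rpl2 at -0.53, lower, beside 14.5% and 24.3% of all loci. At 15 D, 15 rose and none fell, beside 49.3% and 5.70%, with a median of 0.96 (all loci 0.61), and without replicate 1 of 15 D 8 rose. ATMG00510 rose most among those called, by 1.98 ± 0.43 (adjusted p = 0.00045), with 433, 435 and 517 TPM at 15 D, against 94.6, 110 and 149 TPM at 0 D. ATMG00080 rose by 1.64 ± 0.35 (adjusted p = 0.000445), and ATMG00516 by 1.58 ± 0.46 (adjusted p = 0.00541), with 2828, 2741 and 2770 TPM at 15 D, against 955, 912 and 930 TPM at 0 D. Summed with their copies, cob (0.89), rps12 (1.14) and ccmFN2 (0.78) were called higher at 15 D, where the members alone were not. In complex I, nad1 rose by 0.96 ± 0.35 (adjusted p = 0.0233) and nad2 (ATMG01320) by 0.92 ± 0.37 (adjusted p = 0.0356). The alpha subunit gene atp1 had 117, 121 and 127 TPM at 15 D, against 14.2, 29.3 and 60.7 TPM at 0 D, a change of 2.01 ± 0.87 that just missed the threshold (adjusted p = 0.0525). Its pair sum, 1241, 1188 and 1308 TPM at 15 D, against 436, 483 and 582 TPM at 0 D, rose by 1.32 (adjusted p = 0.0033). ATMG00830 (-0.22 ± 0.50), atp6 (0.45 ± 0.50) and ATMG00270 (0.50 ± 0.36) had the lowest fitted changes, none of them called.

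**Figure D3:**
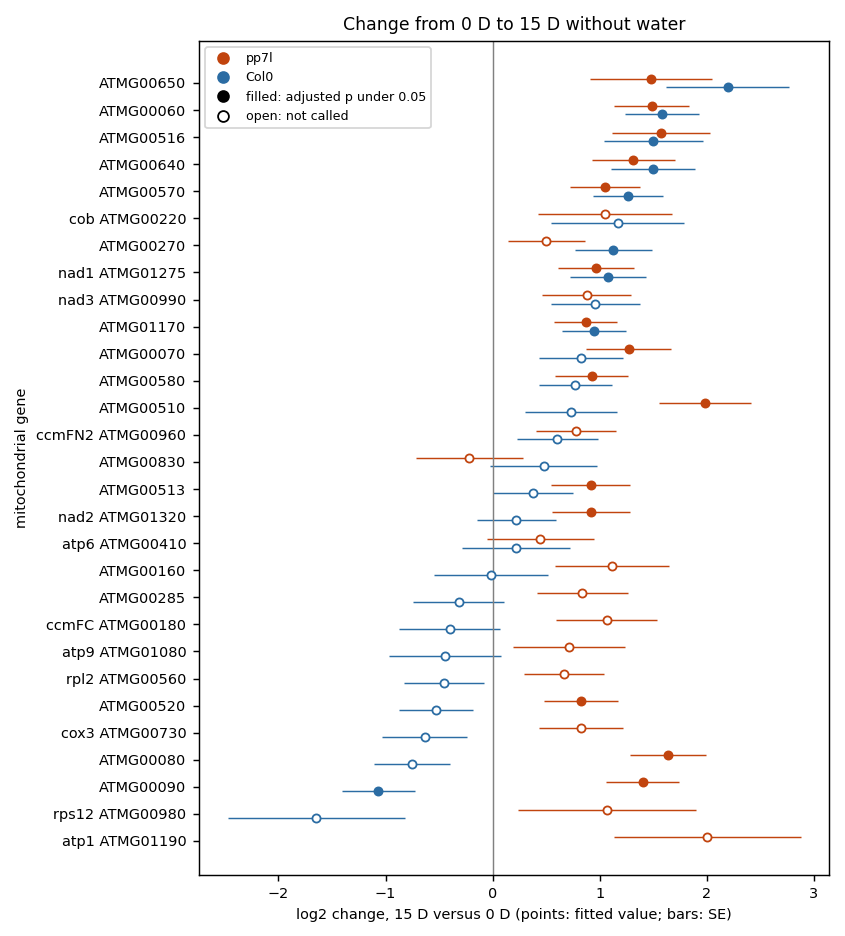
Log2 change from 0 D to 15 D of the 29 genes tested (rows, ordered by the change in Col0), with pp7l above Col0 in each row, bars for SE and filled points for an adjusted p under 0.05. Changes in pp7l lie between -0.22 and 2.01, while those in Col0 run from -1.64 to 2.19; atp1 has no Col0 point because it was listed at 0 there at 15 D.

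At 0 D, 5 of the 29 genes were higher in pp7l than in Col0 and none lower, beside 18.8% and 1.43% of all loci, so the share called was about that of the whole table. The median log2 difference was 0.45 for the 29 genes and 0.28 for all loci. The 5 were rpl2 and the loci ATMG00080, ATMG00090, ATMG00520 and ATMG00830. ATMG00090 had 47.2, 54.1 and 72.1 TPM in pp7l, against 21.1, 24.5 and 15.9 TPM in Col0, a difference of 1.45 ± 0.34 (adjusted p = 0.00412). ATMG00520 differed by 1.56 ± 0.35 (adjusted p = 0.00249), with 12.1, 15.4 and 18.6 TPM in pp7l, against 6.07, 6.10 and 2.24 TPM in Col0. The ribosomal gene rpl2 had 78.1, 86.2 and 93.0 TPM in pp7l, against 40.6, 48.1 and 23.3 TPM in Col0, a difference of 1.24 ± 0.37 (adjusted p = 0.021). ATMG00830 differed by 1.92 ± 0.50 (adjusted p = 0.00846) and ATMG00080 by 1.11 ± 0.35 (adjusted p = 0.0278). In all 5 the libraries of the genotypes did not overlap, as in 46.7% of all loci with every pp7l library higher. Col0 replicate 3 was the lowest library in each of these genes.

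The ribosomal copies went the same way at 0 D. Summed with their nuclear copies, rpl5 was higher in pp7l by 1.79 (adjusted p = 0.0015), rps4 by 2.16 (adjusted p = 0.0001) and rps7 by 1.31 (adjusted p = 0.012), and the atp1 pair by 1.19 (adjusted p = 0.021). The rps4 pair had 25.2, 32.5 and 41.0 TPM in pp7l and 6.67, 7.19 and 5.58 TPM in Col0. At the low end, atp6 (-0.17 ± 0.50), atp9 (-0.14 ± 0.52) and ATMG01170 (-0.11 ± 0.30) were not called, while atp1 alone differed by 2.00 ± 0.87 and missed the threshold (adjusted p = 0.103). After median-of-ratios scaling 6 genes were called higher in pp7l and 4 lower, beside 17.4% and 17.7% of all loci. The 4 were atp6 at -0.75, atp9 at -0.72, cox3 at -0.54 and ATMG00060 at -0.43.

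**Figure D4:**
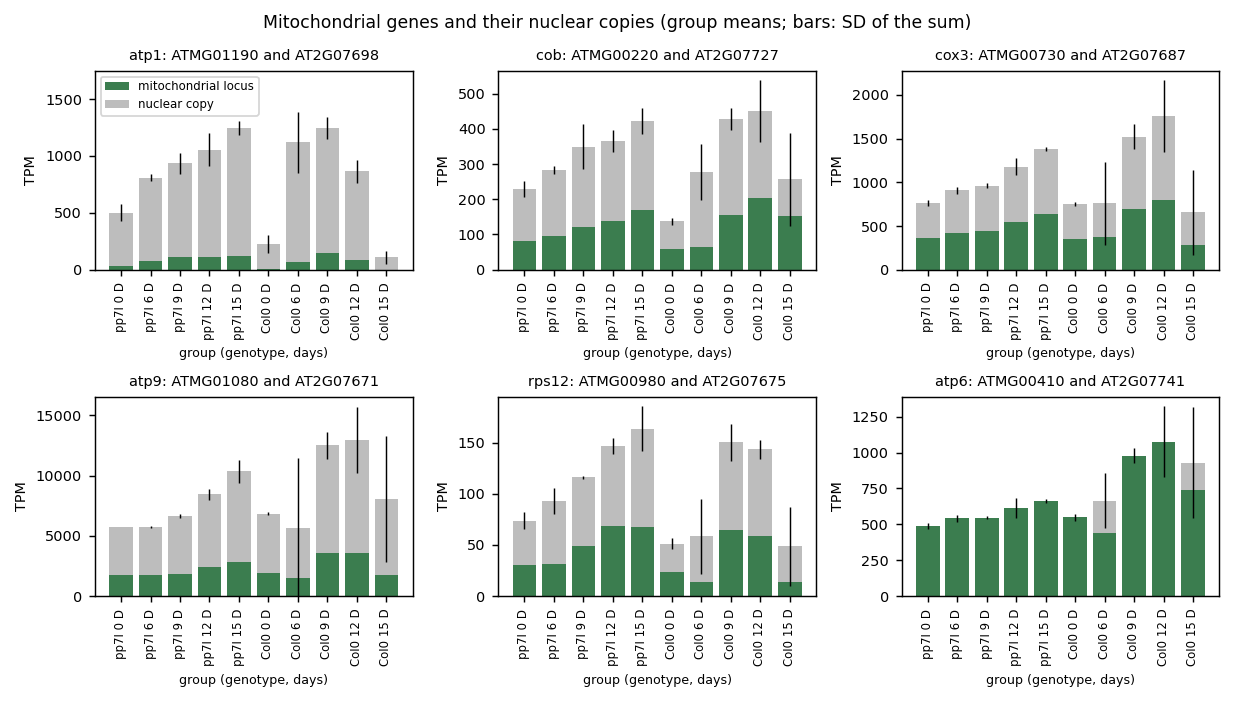
Mean TPM of 6 mitochondrial genes (green) stacked on their nuclear copies (grey) in the 10 groups, pp7l left of Col0 and days without water low to high, with bars for the SD of the pair sum (n = 3, and n = 2 for Col0 6 D). The atp1 pair stands at 436 to 582 TPM in pp7l and 145 to 294 TPM in Col0 at 0 D, and at 1188 to 1308 TPM in pp7l and 44.2 to 148 TPM in Col0 at 15 D.

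At 9 D and 12 D few genes were called between the genotypes. No gene was called between pp7l and Col0 at 9 D, beside 3.05% of all loci higher and 11.6% lower, and the median log2 difference was -0.27 (all loci -0.19). The lowest fitted values were those of atp9 (-0.96 ± 0.52, adjusted p = 0.251), atp6 (-0.84 ± 0.50, adjusted p = 0.303) and ATMG00285 (-0.68 ± 0.42, adjusted p = 0.325), and the highest those of ATMG00090 (0.25 ± 0.34, adjusted p = 0.698), ATMG00640 (0.21) and nad3 (0.15). At an unadjusted p under 0.05 limma called 1 of the 29 genes, ATMG01170 (-0.61 ± 0.30, adjusted p = 0.189). In a limma fit of only the 6 libraries compared, 11 were called lower in pp7l, and the share of all loci in that fit is not given here. Every pp7l library of 9 D lay below every Col0 library in 13 of the 29 genes, beside 40.3% of all loci. At 12 D 1 gene, rpl2, was lower in pp7l and none higher, beside 25.4% and 17.2% of all loci. It had 119, 102 and 96.7 TPM in pp7l and 209, 228 and 175 TPM in Col0, with no overlap (log2 difference -0.94 ± 0.37, adjusted p = 0.0454), and the call was lost when any library of the 2 groups was left out. The next lowest were atp6 (-0.79 ± 0.50, adjusted p = 0.215; called at -0.79 as a pair sum) and ATMG00285 (-0.65 ± 0.42, adjusted p = 0.222), and the highest atp1 (0.46 ± 0.87, adjusted p = 0.702), rps12 (0.20) and ATMG00090 (0.18). Scaled to nuclear protein-coding loci, 2 genes were called higher and 1 lower at 12 D, beside 30.8% and 19.5% of all loci, and scaled to the sum of the 33 genes 1 and 1, beside 27.0% and 18.4%. Without the 3 Col0 libraries rich in nuclear rRNA, 6 genes were called lower in pp7l at 12 D. The share of all loci called lower without these libraries is not given here, and with all libraries it was 25.4%.

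The most genes were called between the genotypes at 15 D. Of the 29 genes, 16 were higher in pp7l than in Col0 and none lower, beside 77.5% and 4.46% of all loci, so the share called was below the background. The median log2 difference was 1.01, beside 1.27 for all loci. ATMG00090 had 149, 138 and 171 TPM in pp7l at 15 D, against 14.5, 11.7 and 4.24 TPM in Col0, a difference of 3.92 ± 0.34 (adjusted p = 2.57e-10). ATMG00080 had 356, 329 and 359 TPM in pp7l, against 57.1, 34.0 and 13.4 TPM in Col0, a difference of 3.50 ± 0.35 (adjusted p = 3.08e-09). The alpha subunit gene atp1 had 117, 121 and 127 TPM in pp7l and was listed at 0 in all 3 Col0 libraries. Its pair sum was 1241, 1188 and 1308 TPM in pp7l, against 148, 139 and 44.2 TPM in Col0, a difference of 3.67 (adjusted p = 1.8e-09). In these genes every pp7l library lay above every Col0 library, as in 12 of the 29 genes and 76.0% of all loci.

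Both tested genes with a ribosomal name were higher in pp7l at 15 D, beside the 77.5% of all loci. The difference was 3.10 ± 0.83 (adjusted p = 0.00135) for rps12 and 2.36 ± 0.37 (adjusted p = 2.97e-06) for rpl2. Rpl2 had 139, 134 and 137 TPM in pp7l, against 39.8, 40.8 and 10.3 TPM in Col0. As pairs with the nuclear copy the differences were 2.09 for rps12 and 2.37 for rpl2. Of the cytochrome c maturation genes, ccmFC was higher by 1.98 ± 0.47 (adjusted p = 0.000429). The call of ccmFN2 (1.00 ± 0.38, adjusted p = 0.017) was lost when it was summed with its copy AT2G07768. That copy was at 0 in every library but Col0 15 D replicates 2 and 3 (31.0 and 11.2 TPM). Whether the reads there came from the copy or from ccmFN2 was not tested. The ccmFN2 pair stood at 76.9, 72.2 and 59.1 TPM in pp7l and 84.0, 61.6 and 26.2 TPM in Col0, groups that overlap, and its difference of 0.42 was not called (adjusted p = 0.237). Cox3 of complex IV was higher by 1.49 ± 0.39 (adjusted p = 0.0012), with 622, 635 and 642 TPM in pp7l, against 507, 246 and 90.2 TPM in Col0. Of the named complex I genes only nad2 was called (0.93 ± 0.37, adjusted p = 0.0218), while nad1 differed by 0.25 and nad3 by 0.11. The 17 tested loci known by identifier only are not placed in a complex here. Of them, 9 were called higher in pp7l and none lower, beside the same 77.5% of all loci. Cob in complex III differed by 0.33, and in complex V atp9 by 1.01 ± 0.52 (adjusted p = 0.0755) and atp6 by 0.06. Summed with its copy, cob was higher in pp7l by 0.88 (adjusted p = 0.0197). The atp6 pair stood at 649, 675 and 666 TPM in pp7l and 1226, 1073 and 491 TPM in Col0, and its difference had the other sign, -0.38, and was not called (adjusted p = 0.254). At the low end, ATMG00270 stood at -0.22 ± 0.36, ATMG01170 at -0.19 ± 0.30 and ATMG00060 at 0.05 ± 0.35, none of them called.

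Between the genotypes too, the split depended on the scale. Scaled to nuclear protein-coding loci, 9 genes were called higher and 7 lower in pp7l than in Col0 at 15 D, beside 61.9% and 12.3% of all loci. Under median-of-ratios scaling 4 stood higher and 20 lower, beside 30.9% and 32.7%, and scaled to the sum of the 33 genes 13 were higher and 3 lower, beside 67.9% and 7.86%. ATMG00060 stood at 0.05 in TPM as deposited and was called lower on those scales, at -0.99 with nuclear protein-coding loci, -2.16 with median-of-ratios scaling and -0.61 with the sum of the 33 genes. ATMG00080, ATMG00090 and ATMG00520 were called higher in pp7l on each of the 4 scales. Of the named genes, rpl2, rps12 and ccmFC were called higher in TPM as deposited, with nuclear protein-coding loci and with the sum of the 33 genes, and were not called after median-of-ratios scaling. The Col0 groups of 15 D had few leaf marker transcripts and more seed storage and nuclear rRNA, as given above, and the part of these in the differences was not tested.

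The change over days was compared between the genotypes directly. From 0 D to 9 D, 2 genes changed less in pp7l than in Col0 and none more, beside 15.0% and 0.512% of all loci. They were ATMG00520 (-1.74 ± 0.49, adjusted p = 0.0167) and rpl2 (-1.69 ± 0.53, adjusted p = 0.0308). The fitted difference was lowest in atp1 (-2.50 ± 1.23, adjusted p = 0.166; called at -1.60 as a pair sum) and ATMG00830 (-1.93 ± 0.71, adjusted p = 0.0631), neither called as a single locus, and highest in nad3 (-0.04), ATMG00640 (-0.32) and ATMG00060 (-0.42). Leaving out 1 library at a time gave 0 to 4 genes at 9 D, with 0 without Col0 0 D replicate 3, pp7l 0 D replicate 3 or pp7l 9 D replicate 2 and 4 without pp7l 9 D replicate 3. From 0 D to 12 D, 6 changed less in pp7l and none more, beside 32.6% and 9.02% of all loci. They were ATMG00080, ATMG00090, ATMG00520, ATMG00830, rpl2 and ccmFN2, and rpl2 differed most, at -2.17 ± 0.53 (adjusted p = 0.00207), followed by ATMG00830 (-1.88) and ATMG00520 (-1.70), with nad3 (-0.17), rps12 (-0.18) and ATMG01170 (-0.38) at the other end. Without the 3 Col0 libraries rich in nuclear rRNA, 14 genes changed less in pp7l at 12 D, and with 1 library left out at a time 2 to 5 did. It was 2 without pp7l 0 D replicate 2 or 3, Col0 0 D replicate 1 or 3, or Col0 12 D replicate 1. Shares of all loci without these libraries are not given here. In 5 of these 6 genes, all but ccmFN2, the level at 0 D was already called higher in pp7l. From 0 D to 15 D, 5 changed more upward in pp7l and none less, beside 51.0% and 3.39% of all loci, namely ATMG00080, ATMG00090, ATMG00520, cox3 and atp1. ATMG00090 differed by 2.47 ± 0.48 (adjusted p = 0.000189), rps12 by 2.71 ± 1.17 without being called (adjusted p = 0.0519; called at 1.58 as a pair sum), and atp1 gets no value because it was listed at 0 in Col0 at 15 D. The lowest were ATMG00650 (-0.72), ATMG00830 (-0.69) and ATMG00270 (-0.62), none called. Without Col0 15 D replicate 1, 14 genes differed, and without Col0 15 D replicate 3, 3 did. At 15 D the split was 3 higher and 6 lower with nuclear protein-coding loci (36.4% and 11.9% of all loci), 3 and 15 after median-of-ratios scaling (23.3% and 27.7%), and 7 and 1 with the sum of the 33 genes (40.5% and 6.68%). These comparisons share the 0 D libraries with those above.

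The make-up of the pool is given as each gene's share of the summed TPM of the 33 genes. Total TPM of other loci cancels in this share, but the split of reads with the nuclear copies does not. The copies took 64.8% to 65.2% of the pair sums in pp7l and 66.3% to 69.9% in Col0 at 15 D, against 60.8% to 63.4% in pp7l and 63.5% to 64.6% in Col0 at 0 D. The share of atp9 averaged 17.2% in pp7l and 13.7% in Col0 at 15 D, against 22.3% in pp7l and 28.2% in Col0 at 0 D. ATMG00516 took 17.0% in pp7l and 20.8% in Col0 at 15 D, against 12.1% in pp7l and 11.3% in Col0 at 0 D. ATMG00060 took 13.2% in pp7l and 20.5% in Col0 at 15 D, against 10.1% in pp7l and 10.4% in Col0 at 0 D. So atp9 had a smaller mean share at 15 D in both genotypes, and the other two a larger one. The share of ATMG00070 was 5.78% in pp7l and 3.28% in Col0 at 15 D, against 5.10% in pp7l and 2.85% in Col0 at 0 D. With TPM scaled to that sum, ATMG00070 was higher in pp7l than in Col0 at 0 D by 0.84 and at 15 D by 0.82, both called.

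Single genes were also tested on this scale, as TPM scaled to the sum of the 33 genes. Against 0 D, ATMG00650 (1.58), ATMG00060 (0.96), ATMG00516 (0.88), ATMG00640 (0.88) and ATMG00570 (0.65) were called higher in Col0 at 15 D. Among the 11 called lower were rps12 (-2.64), ATMG00090 (-1.71), ATMG00080 (-1.38), cox3 (-1.26), ATMG00520 (-1.13), rpl2 (-1.08), atp9 (-1.07), ccmFC (-1.03), ATMG00285 (-0.94) and nad2 (-0.40), and the other was atp1. Of all loci, 13.6% were called higher and 56.5% lower in the same comparison on this scale. Pair sums were not tested on this scale, and at 15 D the values of rps12, ccmFN2 and atp6 above depended on the split with their copies. In pp7l, 2 genes were called higher on this scale at 15 D, ATMG00510 by 0.90 and ATMG00080 by 0.55, and none lower. The share of all loci called in pp7l on this scale at 15 D is not given here, so this count is not set against it. The 3 most abundant genes of a library held at most 48.8% of the pool in pp7l at 15 D, below each Col0 library of 15 D, where they held up to 58.5%.

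**Figure D5:**
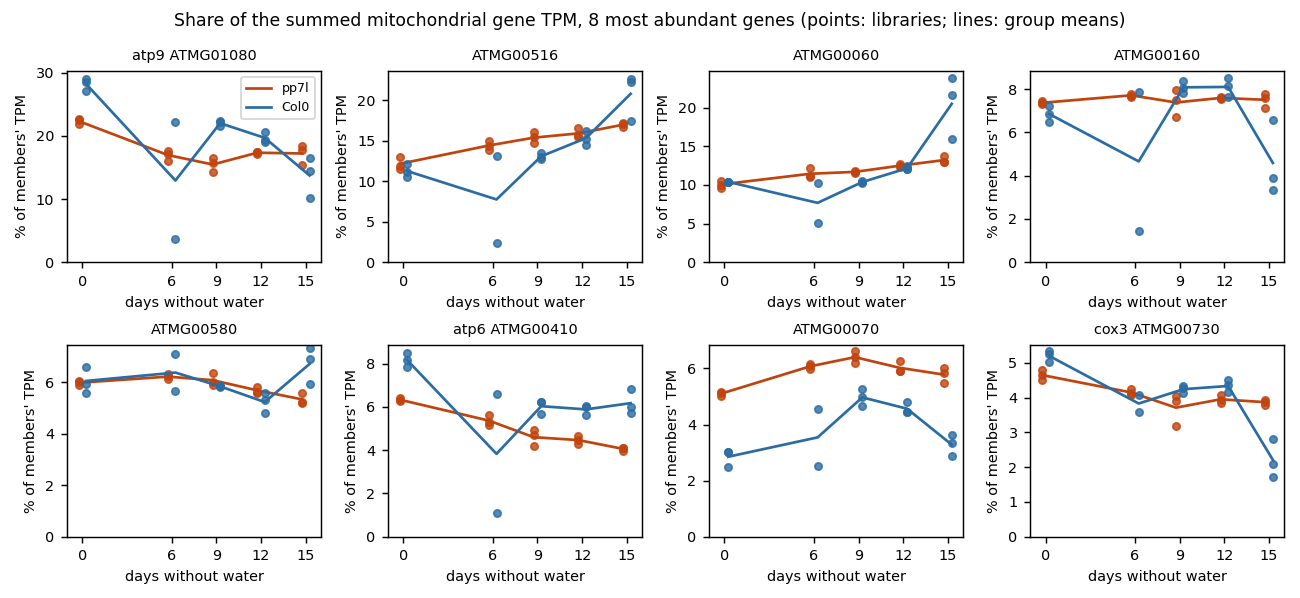
Share of the summed TPM of the 33 genes taken by each of the 8 most abundant genes against days without water, with points for libraries and lines through group means. In Col0 at 15 D the shares of ATMG00516 and ATMG00060 average 20.8% and 20.5%, against 17.0% and 13.2% in pp7l, while that of cox3 averages 2.21%, against 3.87% in pp7l.

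Nuclear genes that work with these mitochondrial genes were listed by complex. In Col0 at 12 D against 0 D, 10 of 17 complex I genes, 6 of 8 complex II genes, 6 of 13 complex III genes, 3 of 9 complex IV genes and 6 of 11 complex V genes were called higher and none lower, beside the 61.9% of all loci. EMB1467 (AT5G37510), a large subunit of complex I, rose most in its list, by 3.85 ± 0.33 (adjusted p = 1.2e-10), with 63.5, 88.9 and 74.2 TPM at 12 D, against 5.13, 7.31 and 1.86 TPM at 0 D. SDH1-1 (AT5G66760), the flavoprotein of complex II, which none of the named members encodes, rose by 5.63 ± 0.37 (adjusted p = 6.5e-13). All 14 tested genes of mitochondrial transcription, splicing and RNA processing rose at 12 D, with AT5G46920, a nuclear maturase, up by 2.82 ± 0.29 (adjusted p = 3.2e-09). Both cytochrome c genes rose, with CYTC-2 up by 2.91 ± 0.50 (adjusted p = 9.61e-06).

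At 15 D in Col0 the nuclear lists differed. Of complex I, 1 gene was called higher and 9 lower against 0 D, of complex II 2 and 2, of complex III 1 and 4, of complex IV 1 and 6 and of complex V 0 and 6, beside 16.7% and 34.7% of all loci. SDH1-1 of complex II was still higher, by 3.01, AT5G25450 of complex III by 3.86 and CYTC-2 by 1.74. Of the 14 RNA processing genes, 4 were called higher and none lower, with PMH2, an RNA helicase, up by 1.39. AT2G19680, a complex V subunit, fell by 2.61 on the log2 scale (SE 0.38, adjusted p = 1.51e-06), with 1.57, 0.720 and 0.355 TPM at 15 D, against 7.25, 12.4 and 11.4 TPM at 0 D. The mitochondrial genes stood at a median of 0.48 in the same comparison, beside medians of -1.10 for complex I, -0.21 for complex II, -0.28 for complex III, -0.94 for complex IV and -1.02 for complex V. In pp7l at 15 D, 1 gene of complex I rose, GAMMA CAL2 (AT3G48680) by 1.00 ± 0.32 (adjusted p = 0.0115), and no complex V gene was called, beside 49.3% of all loci higher and 5.70% lower. Of the 14 RNA processing genes, 10 rose in pp7l at 15 D, and the median change was 0.57. Between the genotypes at 15 D, 15 of 17 complex I genes, 4 of 8 complex II genes and 11 of 11 complex V genes were higher in pp7l and none lower, beside 77.5% and 4.46% of all loci. Of complex III 5 of 13 were higher and 1 lower, AT5G25450 by -2.25, and of complex IV 5 of 9 were higher and 1 lower, AT5G61310 by -1.26.

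Other loci of the organelles gave a comparison. Of the 47 other mitochondrial loci tested, 25 rose and none fell in Col0 at 12 D. At 15 D 5 rose and 2 fell, with a median log2 change of 0.08. Of all loci, 61.9% were called higher and 11.9% lower in Col0 at 12 D, and 16.7% and 34.7% at 15 D. Plastid loci went the other way in Col0, with 4 of 71 higher and 41 lower at 12 D and 1 higher and 65 lower at 15 D, at a median of -3.64. In pp7l at 15 D, 3 of the 71 plastid loci rose and 4 fell, beside 49.3% and 5.70% of all loci. Their median was -0.16, beside the median of 0.96 for the 29 mitochondrial genes.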

How the data were processed

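RNA sequencing values of 29 libraries in 10 groups were used. The authors deposited TPM values per gene. The submitters' processing notes name Trimmomatic, FastQC, Salmon and the TAIR10 build. Versions are not given in the sources used here. How rRNA was removed or messenger RNA selected is not stated in the labels. TPM are shares of a total per transcript length, so a change in plastid RNA, rRNA or 1 abundant locus moves every other value, and depth is unknown. No pair of libraries held identical values.

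The members and gene lists were chosen with earlier results of these data known. Members were named from the notes of RefSeq's TAIR10.1 annotation on nuclear copies and a BLAST match of coding sequences to the mitochondrial genes. TAIR10.1 holds another mitochondrial sequence than the authors' build, so no coordinates or sequences are given.

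Differences were tested with limma 3.58.1 in R 4.3.3 on log2(TPM + 1) for 18757 loci with at least 1 TPM in at least 3 libraries, in a single model of 10 group means with 19 residual degrees of freedom and an intensity trend. P-values are two-sided and adjusted by Benjamini-Hochberg over all loci, with a threshold of 0.05. A fold change on this scale understates that of low genes. The method was tested on simulated data. Alternatives changed the pseudocount, filter, scaling (median-of-ratios, nuclear protein-coding loci, sum of the members), weights and samples in the fit, added a replicate block and left out libraries. Summing a member with its nuclear copy, alone or with scaling to nuclear protein-coding loci, and leaving out Col0 6 D were chosen after seeing the data. In each comparison the 3 members with the highest and the 3 with the lowest change are named. Of each list of partner genes, the called gene with the largest change in a direction could be named, and other members were named after their values were seen.

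Same-numbered libraries correlated by more than 0.1 after removal of group means in all pairs only for pp7l versus Col0 at 15 D (0.124 to 0.265), where the block left the count of calls as it was. Plots were made in Python 3.11.15 (matplotlib 3.10.9).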

Additional observations from a re-analysis of the deposited data

Results flagged for a closer look

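The change from 0 D differed between pp7l and Col0, by limma's test of the difference itself with Benjamini-Hochberg adjustment over all loci, in 2 of the 29 mitochondrial genes at 9 D, 6 at 12 D and 5 at 15 D. Of all loci, 15.0% were called lower and 0.512% higher at 9 D, and 32.6% and 9.02% at 12 D. At 15 D 3.39% of all loci were called lower and 51.0% higher. At 9 D the differences, as the change of pp7l minus that of Col0, were -1.74 for ATMG00520 and -1.69 for rpl2 (ATMG00560). At 12 D they were -1.32 for ATMG00080, -1.27 for ATMG00090, -1.70 for ATMG00520, -2.17 for rpl2, -1.88 for ATMG00830 and -1.38 for ccmFN2 (ATMG00960). At 15 D they were 2.39 for ATMG00080, 2.47 for ATMG00090, 1.35 for ATMG00520 and 1.46 for cox3 (ATMG00730), and atp1 (ATMG01190) was listed at 0 in Col0. ATMG00080, ATMG00090 and ATMG00520 are in the lists of both 12 D and 15 D with opposite signs.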

How the results depend on the processing

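Counts of called genes (limma, 29 tested, adjusted p under 0.05) moved by more than 1.5 times under these settings, and stayed within that under every other setting tried. The share of all loci called is given above for some of these settings and not given for the others. The counts here therefore show only how far they moved with the setting, and nothing about these genes against the whole table. Median-of-ratios scaling gave 6 in Col0 at 9 D, 9 at 12 D and 20 at 15 D, 1 in pp7l at 6 D, 3 at 12 D and 5 at 15 D, 10 between genotypes at 0 D and 1 at 9 D, and 1, 1 and 18 for the difference in change at 9, 12 and 15 D. Scaling to nuclear protein-coding loci gave 19 in Col0 at 15 D, 9, 14 and 15 in pp7l at 6, 9 and 12 D, 8 between genotypes at 0 D and 3 at 12 D, and 4 and 9 for the difference at 9 and 15 D. Scaling to the sum of the members gave 8, 7 and 16 in Col0 at 9, 12 and 15 D, 2, 3, 3 and 2 in pp7l at 6, 9, 12 and 15 D, 10, 1 and 2 between genotypes at 0, 9 and 12 D, and 1 and 8 for the difference at 9 and 15 D. Fitting only the groups compared gave 3 in Col0 at 15 D, 20, 23, 27 and 28 in pp7l at 6, 9, 12 and 15 D, 18, 11, 11 and 9 between genotypes at 0, 9, 12 and 15 D, and 25 and 22 for the difference at 9 and 12 D. Gene-by-gene array weights gave 23 in Col0 at 15 D, 18, 22, 24 and 28 in pp7l at 6, 9, 12 and 15 D, 17, 12 and 13 between genotypes at 0, 9 and 12 D, and 25, 23 and 17 for the difference at 9, 12 and 15 D. The settings chosen after seeing the data gave 9 and 2 between genotypes at 0 and 12 D and 5 for the difference at 9 D with pair sums. Pair sums scaled to nuclear protein-coding loci gave 21 in Col0 at 15 D, 11, 19, 20 and 25 in pp7l at 6, 9, 12 and 15 D, 14, 1 and 5 between genotypes at 0, 9 and 12 D, and 7 and 13 for the difference at 9 and 15 D. Without the Col0 6 D libraries there were 16 in Col0 at 15 D, 5, 12, 18 and 23 in pp7l at 6, 9, 12 and 15 D, 8, 2 and 2 between genotypes at 0, 9 and 12 D, and 8 and 10 for the difference at 9 and 15 D. Without the 3 libraries rich in nuclear rRNA there were 6 between genotypes and 14 for the difference at 12 D. The single call between genotypes at 12 D became 0 with a pseudocount of 0.1 and with the replicate block. The block otherwise gave 4 in pp7l at 9 D and 5 for the difference at 12 D, and changed no other count. Leaving out 1 library at a time gave 22 to 24, 24 to 26 and 9 to 17 in Col0 at 9, 12 and 15 D, 0, 1 to 6, 3 to 6 and 8 to 12 in pp7l at 6, 9, 12 and 15 D, 3 to 5, 0, 0 and 11 to 18 between genotypes at 0, 9, 12 and 15 D, and 0 to 4, 2 to 5 and 3 to 14 for the difference at 9, 12 and 15 D. Single genes changed sign in Col0 at 9 D for ATMG01170 (-0.51 with median-of-ratios scaling, -0.41 with the sum of the members). In Col0 at 12 D atp9 (-0.62), atp6 (-0.57) and nad3 (-0.47) did so with median-of-ratios scaling, and nad3 (-0.38) with the sum of the members. In pp7l at 12 D rpl2 (-0.53) did so with the sum of the members. Between genotypes at 15 D ATMG00060 stood at -2.16, -0.99 and -0.61 with median-of-ratios, nuclear and members' scaling, and at -0.99 with pair sums on the nuclear scale. Scaling moves the median of all loci by construction, and other causes were not tested. Depth is unknown, so no counting error can be given.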
